A study of Mus musculus with 16 samples.

Results

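The upstream part of exon 2 of MUNC comprises residues A131 to A318 of the spliced RNA and holds the CH4 hairpin. Its members were chosen by position alone and no measured value entered the choice. They are 188 of the 518 residues of the spliced RNA, and 188 of the 468 that lie between the primer sites. MUNC is a long non-coding RNA that RefSeq (assembly GRCm38.p6) lists as another name of the gene Gm45923 on chromosome 7. The RNA was probed by SHAPE-MaP in C2C12 cells, a mouse myoblast line, labelled PAX7 NEG and grown in 20% FBS. Each cell population overexpressed 1 of 4 forms of MUNC: the spliced form, the genomic form with retained sequence between the exons, the CH1 deletion, or the CH4 deletion. Every library therefore reports on overexpressed RNA, and the labels do not say whether a line was a single clone. The RNA was treated with 25 mM 5NIA or with DMSO, either while still in the cells or once extracted (cell-free). The 16 libraries form 8 pairs: spliced cell-free replicates 1 and 2, spliced in-cell replicates 1 and 2, genomic cell-free, genomic in-cell, CH1 deletion cell-free and CH4 deletion cell-free. Only the spliced RNA has replicates, and no label says that they came from separate cultures, so p-values measure the spread between these samples, which may be technical.

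A SHAPE reagent acylates the ribose of flexible nucleotides, and reverse transcriptase reads the adduct as a mutation. Residues held in a helix react little, whereas those in loops, bulges and linkers react more, with adenosines and guanosines often ahead of pyrimidines. Reactivity below is the authors' normalised score, which is the 5NIA mutation rate minus the DMSO rate times a factor set for each profile, and pairing models give the probability of each base pair. Long non-coding RNAs can fold into separate hairpins, and MUNC is known for promoting the expression of muscle genes, among them the neighbouring gene Myod1.

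The sequences below carry the results. The whole region is shown first, 5′ to 3′, with the residues absent from the CH4 deletion RNA in capitals. In the CH4 hairpin and the exon 1 and exon 2 strands the capitals mark residues paired at a probability of at least 0.5 in the joined spliced model. In the other hairpins and the closing helix they mark the strands of the main helix alone, and further inner pairs are in lower case (186 and 187 with 191 and 192, and in the genomic model 237 to 239 with 243 to 245). In the junction they mark the residues that follow the deletion.

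region, residues A131 to A318: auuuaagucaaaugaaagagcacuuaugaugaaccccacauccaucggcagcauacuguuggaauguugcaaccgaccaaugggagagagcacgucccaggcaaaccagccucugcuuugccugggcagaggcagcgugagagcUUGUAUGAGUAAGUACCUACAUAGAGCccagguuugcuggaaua

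CH4 hairpin, residues 273 to 301 of the joined spliced model: GCUUguaUGAGuaaguacCUaCAuaGAGC

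hairpin 239 to 263 of the spliced models: GCCUCUGCUUugccuGGGCAGAGGC

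hairpin 226 to 256 of the genomic model: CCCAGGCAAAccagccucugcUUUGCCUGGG

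hairpin 178 to 200 of the joined spliced model: GCAGCAUacuguuggaAUGUUGC

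closing helix, 5′ strand within residues 227 to 241: ccagGCAAACCagcc

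closing helix, 3′ strand within residues 301 to 315: cccaGGUUUGCugga

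exon 1 strand, residues 55 to 70: GGAcaGGGGaaaAUCA

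its exon 2 partner, residues 157 to 173: UGAUgaaCCCCacaUCC

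junction of the CH4 deletion RNA, residues 265 to 274 followed by 302 to 312: gcgugagagcCCAGGUUUGCU

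The hairpin 239 to 263 and the hairpin 226 to 256 share residues 239 to 256, so both cannot form in the same molecule. The segment 226 to 235 also overlaps the 5′ strand of the closing helix. The 27 residues missing from the CH4 deletion RNA can be placed at 6 equal positions, starting at residues 270 to 275. With the last of them, used here, the deletion removes residues 275 to 301 and leaves G273 and C274. The deposited CH4 deletion sequence lacked these residues, as its label states.

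All 188 residues carried a reactivity in every profile, except G255 in the genomic cell-free profile and the deleted residues in the CH4 deletion profile, which left 161. The median depth over the region with 5NIA ran from 13716.5 reads (spliced in-cell replicate 2) to 250057 (genomic RNA in cells), and with DMSO from 31240 in the CH4 deletion to 286382 in spliced in-cell replicate 1. Spliced in-cell replicate 2 stood apart from the other profiles: its reactivities correlated with those of in-cell replicate 1 at a Pearson r of -0.02 and a Spearman rho of 0.45 over the 188 residues, whereas the cell-free replicates gave 0.95 and 0.92. Residues are not independent replicates, and the points of 1 profile share a library and a scaling factor. In that replicate 3 residues of the region had 5NIA rates of at least 5%: A147, C246 and G255. G255 had 2501 mutations in 13927 reads, which is 18.0% (17.3% to 18.6% as a 95% Wilson interval), against 1.63% in replicate 1 (1.57% to 1.70%). Results that rest on in-cell replicate 2 are given with and without it, and intervals and the authors' standard errors cover counting error only.

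**Figure D1:**
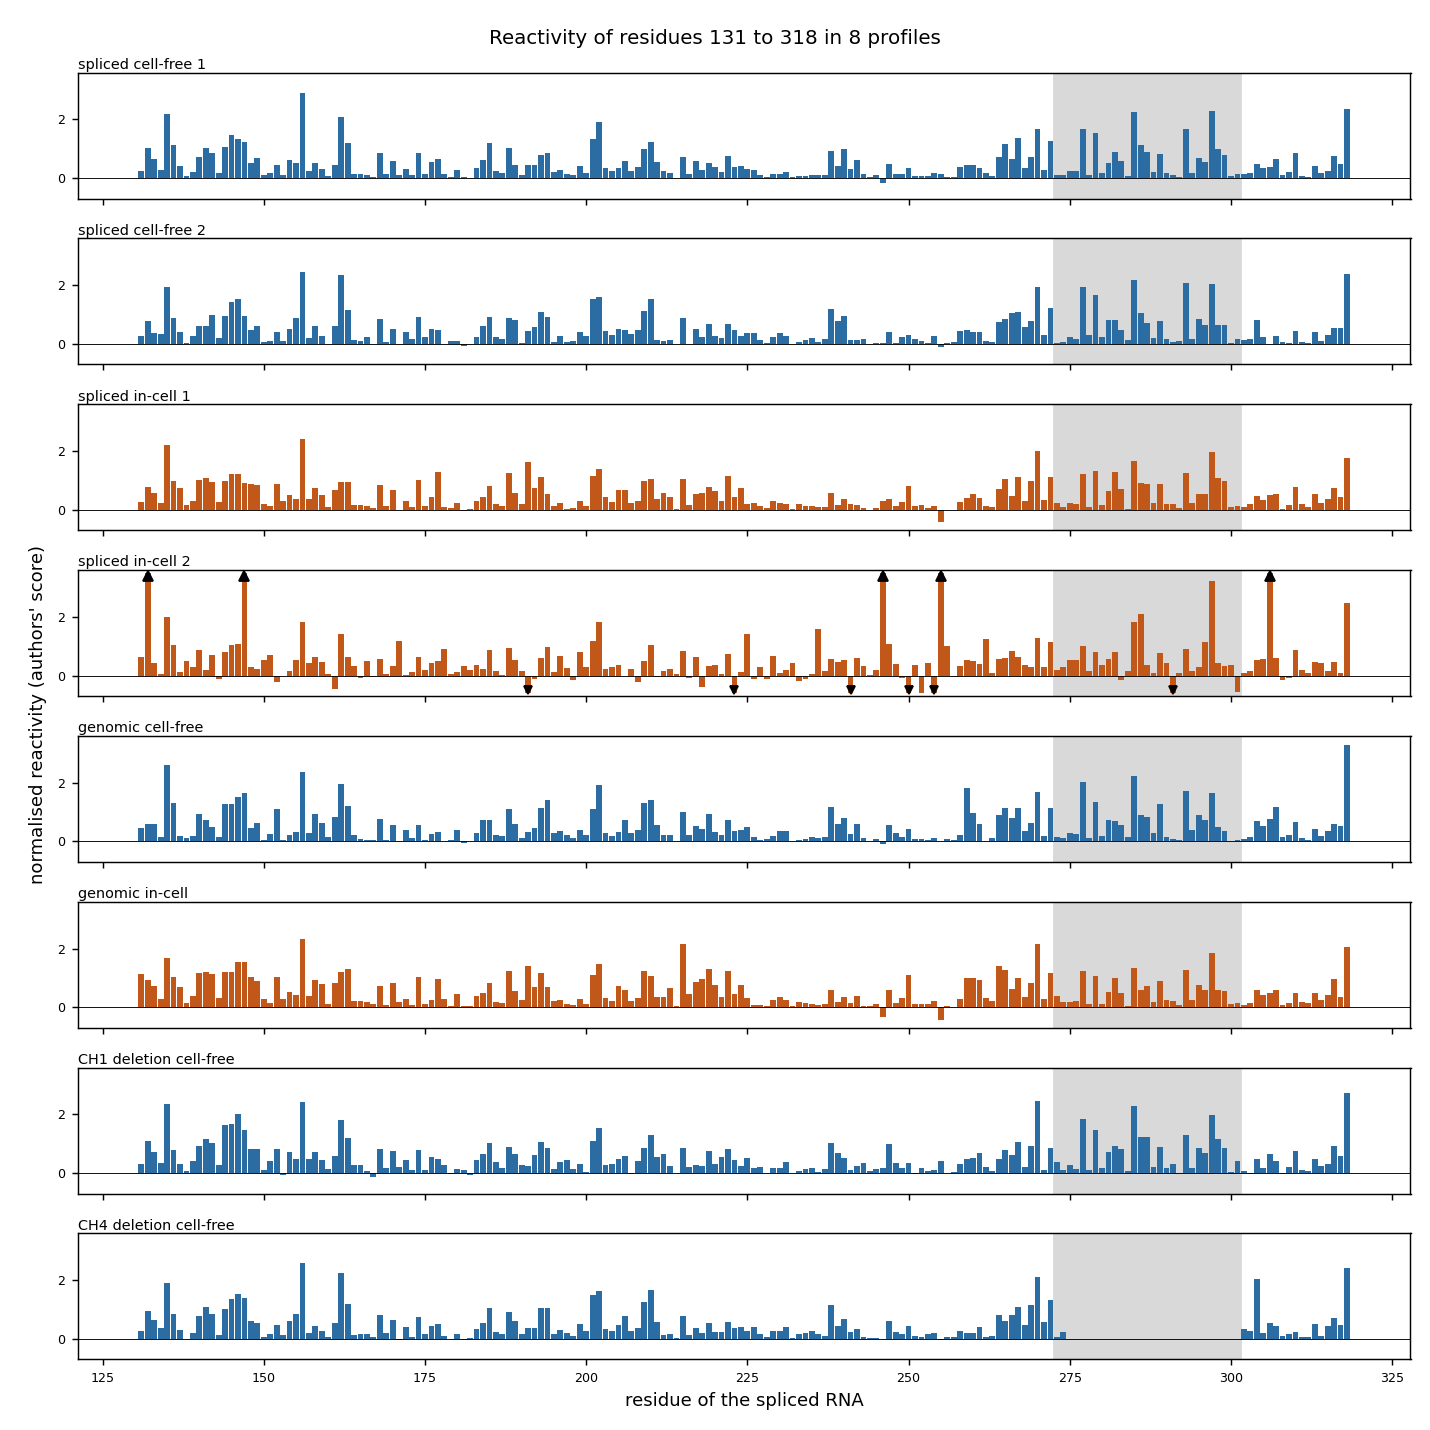
Normalised reactivity (vertical axis, the authors' score, no unit) of residues A131 to A318 (horizontal axis, residue of the spliced RNA) in the 8 profiles, blue for cell-free and orange for in-cell RNA. The grey band is the CH4 hairpin, and black triangles mark values outside the plotted range, which occur in spliced in-cell replicate 2 alone (up to 69.4 at G255). The same tall bars, such as A156, A285, A297 and A318, recur from profile to profile.

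Treatment with 5NIA raised the mutation rate over most of the region. The mean rate over its residues was 1.49% with 5NIA and 0.150% with DMSO in the first spliced cell-free pair, and 2.04% and 0.337% in the other. Inside cells the spliced RNA gave 0.436% and 0.136% in replicate 1 and 0.462% and 0.107% in replicate 2. The genomic RNA gave 1.60% and 0.208% cell-free and 0.506% and 0.137% when probed in cells. The CH1 deletion RNA gave 0.680% and 0.156%, and the CH4 deletion RNA 1.82% and 0.343%. The 5NIA rate was the higher in 8 of 8 pairs, and the log2 ratio averaged 2.38 ± 0.55 (SD, n = 8). In the rest of the exons it averaged 2.22 ± 0.67 (SD, n = 8), and the region exceeded the rest in 6 of 8 pairs by 0.16 ± 0.25 on average, which is less than the spread between pairs.

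Per residue, edgeR's quasi-likelihood test on the mutation counts of the 8 spliced libraries found a higher rate with 5NIA at 120 of 188 residues and a lower rate at 0, with p-values adjusted by Benjamini-Hochberg and a threshold of 0.05. A further 11 residues were higher and 0 lower with only the unadjusted p below 0.05, and DESeq2 called 137 higher. Over all residues tested the share called higher was 62%, so the region, at 63.8%, was near the background. The rise was called at 51 of 55 adenosines, 29 of 49 guanosines, 25 of 44 cytidines and 15 of 40 uridines. It was called at 71 of the 83 residues left unpaired by the joined model and at 49 of the 105 paired ones. All 9 residues of the linker 264 to 272 passed, compared with 7 of 25 in the hairpin 239 to 263 and 2 of 10 in the 3′ strand of the closing helix. Without spliced cell-free replicate 2 the count fell to 68, while a fit of the in-cell libraries by themselves made 0 calls and had 47 residues with an unadjusted p below 0.05. TMM scaling, which assumes that most residues do not change, gave 36 higher and 11 lower.

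The 5 largest rises were at A318, A147, A297, G277 and A156. At A318, the last residue of the region, the 5NIA rates were 6.34% and 8.40% cell-free and 1.11% and 0.689% in cells, against DMSO rates of 0.0529%, 0.179%, 0.0548% and 0.0479%. The fitted log2 rise was 5.07 (SE 0.95, edgeR adjusted p = 7.8e-06). Every 5NIA library was thus above every DMSO library at this residue. A147 rose by 5.06 on the log2 scale (SE 1.36, edgeR adjusted p = 0.00082), and its 5NIA rates were 3.38% and 3.64% cell-free and 0.619% and 16.6% in cells, so the last value was the outlying one. The rises at A297, G277 and A156 were 4.75, 4.62 and 4.60 on the log2 scale, with edgeR adjusted p-values of 2.4e-05, 1.0e-05 and 4.0e-05. A297 and G277 lie in the CH4 hairpin, where 19 of 29 residues passed.

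The joined model of the spliced RNA placed 53 pairs with a probability of at least 0.5 on the region, and 55.9% of its residues were paired, against 54.2% of the whole RNA. Of these pairs, 41 lay within the region and 12 joined it to exon 1, and none reached the rest of exon 2. The replicate 2 model, however, placed 11 pairs with the rest of exon 2 at this threshold, and the replicate 1 model placed 0. The longest such helix, residues 218 to 222 with 383 to 387, had a mean probability of 0.610 in replicate 2. It had 0.267 in replicate 1 and 0.483 in the joined model, just under the threshold. Cell-free reactivities belong to these models, per the labels, so the match between model and cell-free profile is a description. Residues left unpaired by the joined model had a higher median reactivity than paired ones in all 8 profiles. The difference was 0.445 and 0.475 in the spliced cell-free replicates, 0.525 and 0.217 in the in-cell replicates, 0.430 and 0.590 in the genomic RNA cell-free and in cells, 0.503 in the CH1 deletion and 0.416 in the CH4 deletion. The lowest of these values came from in-cell replicate 2.

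**Figure D2:**
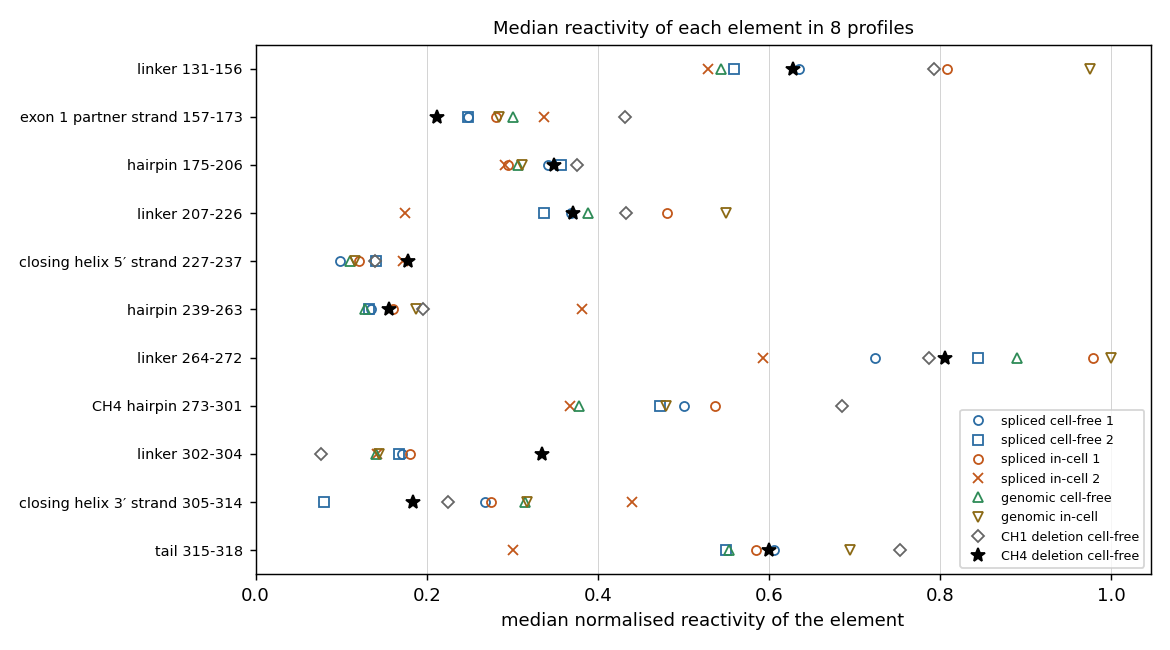
Median normalised reactivity (horizontal axis, the authors' score) of each structural element of the region (vertical axis, with residue numbers), 1 symbol per profile. The strands 227 to 237 and the hairpin 239 to 263 lie low, and the linker that ends at A156 and the linker 264 to 272 lie high. The CH4 deletion profile is not shown for the CH4 hairpin, of which it retains 2 residues.

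Read from its 5′ end, the region began with an open, adenosine-rich linker, residues A131 to A156, with median reactivities of 0.636 and 0.559 in the cell-free replicates. Its last residue, A156, had the highest mean of the cell-free replicates in the region and read 2.89 and 2.47 cell-free, 2.42 and 1.81 in cells, 2.36 and 2.32 in the genomic RNA cell-free and in cells, 2.41 in the CH1 deletion and 2.58 in the CH4 deletion. A135, at 2.19 and 1.93 cell-free, was the other tall residue of the linker, and it ran from 1.69 to 2.61 in the remaining profiles. U132, which closes a short 3-pair stem 130 to 132 with 137 to 139 (mean probability 0.817), was reactive all the same, at 1.01 and 0.787.

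Residues 157 to 173 then paired with exon 1. The helix of residues 60 to 63 with 164 to 167 joined 4 guanosines to 4 cytidines, with a mean probability of 0.992 in the joined model. The helix of residues 67 to 70 with 157 to 160 had 0.931. C164 to C167 had reactivities of 0.142, 0.148, 0.111 and 0.0329 in cell-free replicate 1 and of 0.134, 0.0989, 0.249 and -0.0210 in replicate 2. Between the helices A162, unpaired in the model, read 2.08 and 2.34. The flanking A163 read 1.19 and 1.14, so the stretch alternated between closed cytidines and open adenosines.

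The hairpin of residues 178 to 184 with 194 to 200 was kept by all 6 models. Its mean probability was 0.971 in the joined model and in replicate 1, 0.969 in replicate 2, 0.980 in the CH1 deletion, 0.959 in the CH4 deletion and 0.922 in the genomic RNA. G181 and C182, in the middle of its 5′ strand, were near 0 in most profiles, with G181 between -0.0719 and 0.314 and C182 between -0.0554 and 0.189. The upper values of both ranges came from in-cell replicate 2. After the hairpin, A201 and A202 were open, at 1.33 and 1.54 for A201 and 1.90 and 1.61 for A202 cell-free.

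The longest helix of the spliced models was the hairpin of residues 239 to 248 with 254 to 263, with 10 pairs, of which 6 are G-C. Its mean probability was 0.997 in the joined model, 0.866 in replicate 1 and 0.999 in replicate 2. The closing helix of residues 231 to 237 with 305 to 311, with 7 pairs, had 0.951, 0.831 and 0.957, and it encloses this hairpin, the linker 264 to 272 and the CH4 hairpin. Both runs of at least 6 residues under 0.3 in both cell-free replicates lay here: 231 to 237, the 5′ strand of the closing helix, with a highest value of 0.263, and 251 to 257, with 0.255. The second run included the loop residues C251, C252 and U253, which the joined model left unpaired and which read 0.0758, 0.0693 and 0.0645 in cell-free replicate 1. The first pairs of the hairpin were the opposite case, since C240 read 0.985 and 0.957 and A238, between both helices, read 0.918 and 1.19. On its 3′ strand A258, G259, A260 and G261 lay between 0.349 and 0.460 in the cell-free replicates. C246, G255 and G306 had DMSO rates of up to 2.57%, 7.96% and 3.37%, so their reactivities are differences between high rates, and 12 of 188 residues had a DMSO rate of at least 1% in some profile.

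The CH4 hairpin stood on a helix of 4 pairs, residues 273 to 276 with 298 to 301, with a mean probability of 0.975 in the joined model, 0.945 and 0.985 in the replicate models, 0.847 in the CH1 deletion and 0.707 in the genomic RNA. Its strands did not read alike. The 5′ strand was low, with G273 at 0.117 and 0.0139, C274 at 0.1004 and 0.0685, U275 at 0.250 and 0.235 and U276 at 0.255 and 0.159 in the cell-free replicates. On the 3′ strand G300 and C301, the partners of C274 and G273, were low too, at 0.0520 and 0.0201 and at 0.139 and 0.166. A299 and G298, which the model pairs with U275 and U276, were reactive, at 0.784 and 0.650 and at 1.00 and 0.642. In the genomic RNA G298 read 0.484 cell-free and 0.589 in cells, and A299 read 0.356 and 0.569, the lowest values of these residues outside in-cell replicate 2, where they were 0.415 and 0.326.

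Above this helix the model left an internal loop, which held 2 of the 4 most reactive residues of the hairpin, A297 and G277. On the 5′ side G277 read 1.68 and 1.95 cell-free, 1.20 and 1.02 in cells, 2.04 and 1.23 in the genomic RNA cell-free and in cells, and 1.84 in the CH1 deletion. A279 read 1.53 and 1.67, 1.31 and 0.806, 1.34 and 1.06, and 1.48 in the same order, while U278 between them was low, at 0.0880 and 0.316 cell-free. On the 3′ side A297 read 2.27 and 2.04 cell-free, 1.957 and 3.24 in cells, 1.64 and 1.86 in the genomic RNA, and 1.99 in the CH1 deletion. U296 was of middle height, at 0.540 and 0.656. Among these loop residues the purines were the taller, and uridines stayed below 1 in every profile but U296 in in-cell replicate 2, at 1.15.

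The upper stem was weak in the joined model, with 0.550 for U280 and G281 with C294 and A295, and 0.772 for A282 and G283 with C291 and U292. The replicate models gave 0.696 and 0.407 for the first of these and 0.747 and 0.789 for the second. Again purines were reactive opposite closed pyrimidines: A282 read 0.893 and 0.828 and G283 0.589 and 0.473 cell-free, against 0.109 and 0.0798 at C291 and 0.0309 and 0.105 at U292. A293, an unpaired residue between the stem pairs, read 1.68 and 2.07. In the terminal loop A285 read 2.24 and 2.19 cell-free, 1.67 and 1.82 in cells, 2.24 and 1.35 in the genomic RNA, and 2.28 in the CH1 deletion. A286, G287 and A289 followed, at 1.11 and 1.05, 0.880 and 0.704, and 0.820 and 0.768. The pyrimidines of the loop were low: U284 at 0.0820 and 0.139, U288 at 0.199 and 0.184 and C290 at 0.155 and 0.183. Of the 10 highest residues of the region, A285, A297, A293 and G277 lay in the CH4 hairpin, and A270 in the linker just before it, at 1.68 and 1.955.

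**Figure D3:**
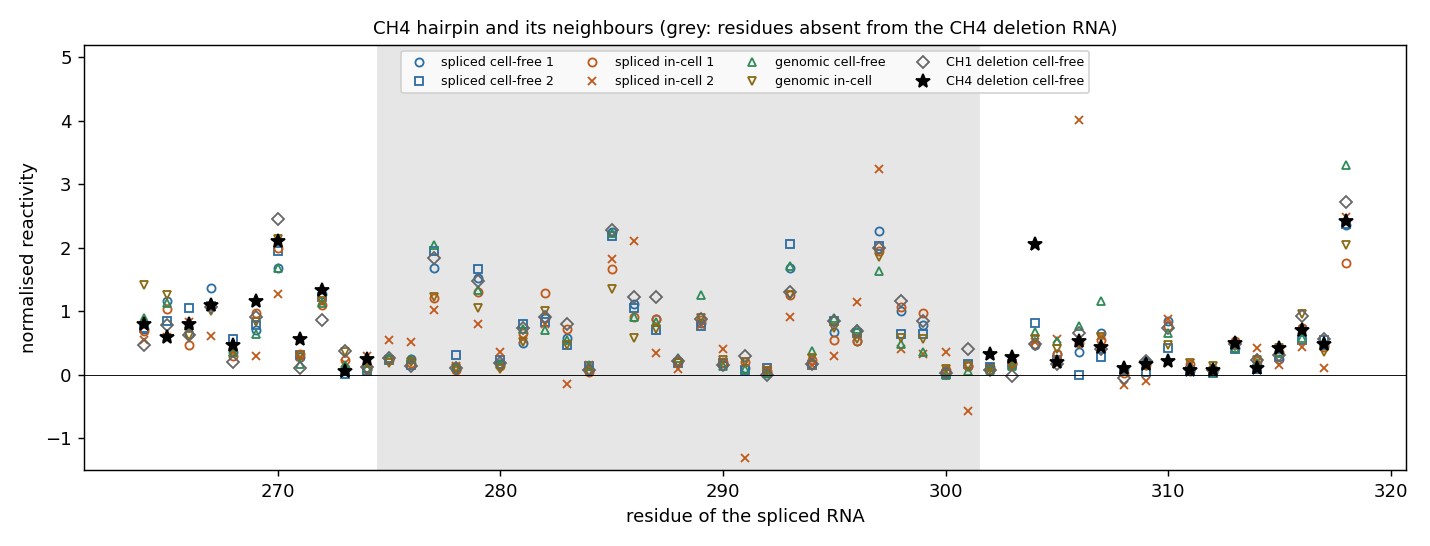
Normalised reactivity (vertical axis, the authors' score) of residues from 264 to the end of the region (horizontal axis, residue of the spliced RNA), 1 symbol per profile. The grey band marks residues 275 to 301, absent from the CH4 deletion RNA, where purines such as G277, A285 and A297 are tall. The black star at residue 304 is the CH4 deletion value of 2.06, above all other profiles.

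The CH4 deletion RNA addresses whether the rest of the region folds without the hairpin. Over the 161 residues left, 1 passed the size rule, which asks for a difference from the mean of both spliced cell-free profiles of at least 0.5 and of more than the sum of the 95% counting margins of both values. The share past the rule over all residues of this comparison was 1.59%, and between the spliced cell-free replicates it was 2.35%, with 0 of 188 in the region. The size rule is no test, and with 1 CH4 deletion profile there is no replicate check. The residue was A304, 3 residues after the junction: it read 2.06 (SE 0.0437) in the CH4 deletion, against 0.474 and 0.816 in the spliced cell-free replicates, 0.484 and 0.518 in cells, 0.681 and 0.573 in the genomic RNA, and 0.487 in the CH1 deletion. C302 and C303 beside it read 0.335 and 0.281, above both cell-free replicates, which gave 0.120 and 0.127 for C302 and 0.171 and 0.167 for C303. Upstream of the junction G271 read 0.567 against 0.278 and 0.316, and G269 read 1.17 against 0.708 and 0.788.

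The models differed as little. The closing helix had a mean probability of 0.989 and the hairpin 239 to 263 of 0.997 in the CH4 deletion model, and 2 residues became paired and 2 unpaired relative to the joined model. The newly paired residues, G265 and C266, were joined to C274 and G273, the remaining foot of the hairpin, with a mean probability of 0.978. G265 read 0.603 against 1.17 and 0.844 in the spliced cell-free replicates, and C266 read 0.802 against 0.639 and 1.06, so both lay below the cell-free mean but C266 not below both replicates. The hairpin of residues 211 to 215 with 225 to 229 had 0.713 here and 0.450 in the joined model. The replicate models of the spliced RNA themselves differed on it, at 0.574 and 0.316.

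The CH1 deletion RNA lacks residues of exon 1 that lie outside the region, and 5 of 188 residues of the region passed the size rule, with 3.23% over all residues of this comparison. A270 read 2.46 against 1.68 and 1.955 in the spliced cell-free replicates, G144 read 1.64 against 1.05 and 0.961, A146 read 2.01 against 1.33 and 1.53, and U247 read 0.995 against 0.469 and 0.3999. A293 was the single residue below, at 1.31 against 1.68 and 2.07. All 5 CH1 deletion values lay outside the range of both replicates. That follows from the size rule, since the replicates did not differ past it in the region, and it adds no support. Against replicate 2 alone the count was 12, so it depends on the reference replicate.

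In the CH1 deletion model the pairing with exon 1 was another one. The helices of residues 60 to 63 with 164 to 167 and 67 to 70 with 157 to 160 had mean probabilities of 0.0226 and 0.0198. In their place stood residues 123 to 128 with 213 to 218 at 0.909, 117 to 120 with 220 to 223 at 0.842 and 158 to 161 with 173 to 176 at 0.798. Relative to the joined model 19 residues became unpaired and 9 paired. The newly unpaired residues had a median reactivity of 0.314, against 0.230 in the spliced cell-free mean, and 14 of 19 were higher. Of the 160 residues in the same state in both models, 97 were higher as well. Whether these shares differ was not tested. Over the stretch 157 to 173, 11 of 17 residues lay above both replicates, with a median of 0.432 against 0.248 and 0.249. Elsewhere the count was 13 of 27 in 275 to 301, 6 of 10 in 247 to 256 and 3 of 10 in 226 to 235. The changes within 157 to 173 were small and uneven: C164 and C165 read 0.261 and 0.267 against at most 0.148, while C166 and C167 read 0.0752 and -0.121. The newly paired residues had a median of 0.459 against 0.432, with 5 of 9 higher. The closing helix, the hairpin 239 to 263 and the lower helix of CH4 stayed above 0.8 in this model, but U280, G281, C294 and A295 of the upper CH4 stem were among the newly unpaired residues. Their pairs had a mean probability of 0.425 here, against 0.550 in the joined model. The replicate 2 model of the intact spliced RNA, at 0.407, left them unpaired as well.

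In the genomic RNA the retained sequence joins the region just upstream, and its model rearranged the middle of the region. The hairpin 239 to 263 had a mean probability of 0.00556 and the closing helix 0.00546, and both exon 1 helices had 0. The hairpin of residues 226 to 235 with 247 to 256, also of 10 pairs, took their place at 0.987, whereas it had 0.00205 in the joined model and 0.131 in the replicate 1 model. Residues 302 to 305 with 311 to 314 followed at 0.713, and residues 165 to 168 with 211 to 214 at 0.626. A helix of 5 pairs joined residues 267 to 271 to the retained sequence at 0.707. Of the 53 pairs of the joined model, 21 were kept, 28 residues became unpaired and 25 paired. The hairpin 178 to 200 was among those kept, as were the lower helix of CH4 and the pairs of A282 and G283, whereas U280, G281, C294 and A295 of CH4 were left unpaired. The spliced replicate 2 model left the same CH4 residues unpaired.

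**Figure D4:**
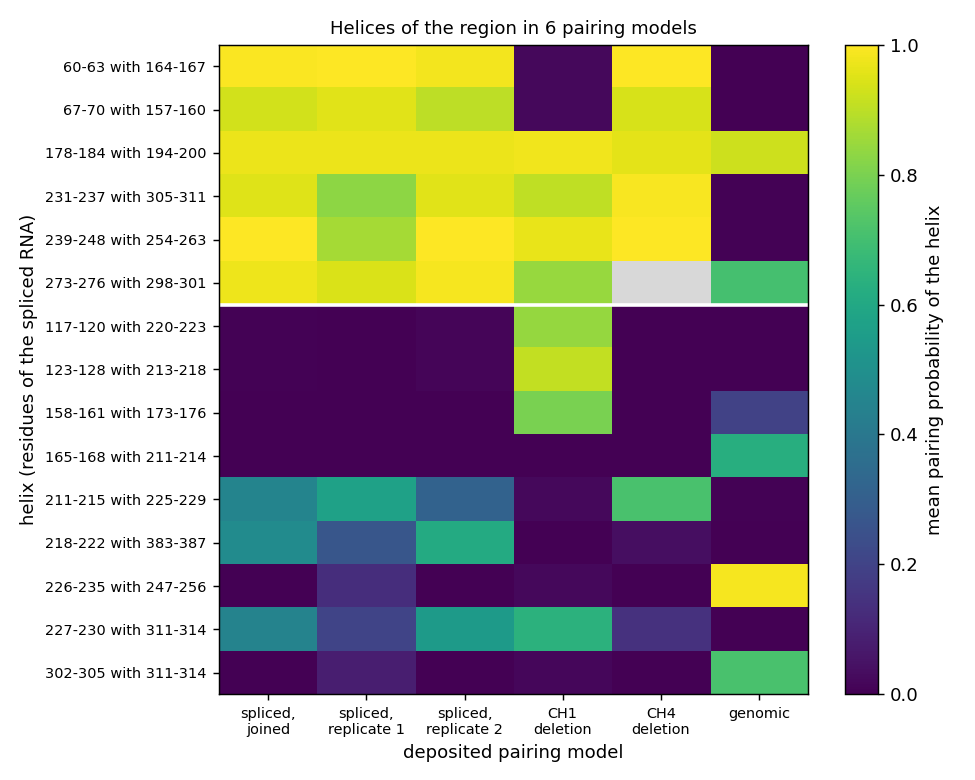
Mean pairing probability (colour scale, 0 to 1) of helices with at least 4 pairs (vertical axis, residues of the spliced RNA) in the 6 deposited models (horizontal axis). Helices above the white line belong to the joined model, and those below it to other models. The grey cell is the CH4 helix in the CH4 deletion RNA, which lacks it. The hairpin 178 to 200 is bright in all columns, and the genomic column exchanges the hairpin 239 to 263 for 226 to 256.

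Reactivity differed at some of the residues whose pairing differs between the hairpins. The 3′ strand residues A258 to G261 are paired in the hairpin 239 to 263 and free in the genomic model. G259 read 1.81 (SE 0.0171) in the genomic cell-free profile against 0.428 and 0.460 in the spliced replicates, and in cells it read 0.996 against 0.404 and 0.528. A260 read 0.968 against 0.453 and 0.392 cell-free and 1.00 against 0.531 and 0.485 in cells. G261 read 0.590 against 0.349 and 0.404 cell-free and 0.924 against 0.406 and 0.381 in cells. These 3 residues were higher in the genomic RNA in both environments, while A258 was not, at 0.207 cell-free against 0.373 and 0.444. On the 5′ strand C240, C241 and U242 are freed as well, and none of them read above both spliced replicates cell-free: C240 read 0.805 against 0.985 and 0.957, C241 0.246 against 0.316 and 0.115, and U242 0.594 against 0.609 and 0.133. In-cell profiles are not labelled as inputs of the models. The strands of the genomic hairpin, 226 to 235 and 247 to 256, had medians of 0.110 and 0.1001 in the genomic cell-free profile and of 0.125 and 0.132 in cells. G250, paired at 0.994 in the genomic model and unpaired in the joined one, read 0.436 cell-free and 1.10 in cells in the genomic RNA, against 0.339 and 0.288 in the spliced cell-free replicates and 0.803 in spliced in-cell replicate 1.

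On the 3′ strand of the closing helix, freed in the genomic model, U307 read 1.16 against 0.662 and 0.283 and G306 read 0.770 against 0.366 and 0.00710 cell-free. In cells U307 read 0.598 against 0.551 in spliced in-cell replicate 1, and G306 read 0.491 against 0.504, so the difference was not seen there. Over the 28 residues freed in the genomic model, the genomic cell-free median was 0.444 against 0.313 in the spliced cell-free mean, with 22 higher, and in cells it was 0.3329 against 0.288, with 17 higher. The 135 residues in the same state in both models had 69 of 134 measured residues higher cell-free and 88 of 135 higher in cells. The 25 residues newly paired had a median of 0.237 against 0.313 cell-free, with 9 higher, but 0.422 against 0.323 in cells, with 19 higher, so the environments did not give the same direction.

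By the size rule 10 of 187 residues differed between genomic and spliced RNA cell-free, against 8.57% over all residues of this comparison. Besides G259, U307, G306 and A260 these were A318, A152, A135, A147 and A194, which were higher in the genomic RNA, and A297, which was lower. A135, A147, A152 and A194 were read from 2 overlapping amplicons, which over the 65 shared residues of the region differed past the rule at 13 cell-free and 5 in cells. A194 read 4.33 in amplicon 1 and 0.967 in amplicon 2, and its merged value of 1.41 lay nearer amplicon 2. The amplicon 2 value was close to the spliced cell-free mean of 0.876, so passing the rule rests on amplicon 1. In cells, against spliced replicate 1, 9 of 188 residues passed, with 5.56% over all residues. They were A215, A131, A264, A147, G259, A219 and G261 higher, and C246 and A135 lower. A215 was the largest, at 2.16 against 1.05. A147 and G259 passed in the same direction in both environments, and A135 passed in opposite directions.

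How the region differed between cells and extracted RNA was asked of the spliced RNA first. The 5NIA rate minus the DMSO rate over the region averaged 1.34 and 1.71 percentage points cell-free and 0.3001 and 0.355 in cells, a 4.65-fold lower level in cells. Without the residues with high 5NIA rates, in-cell replicate 2 gave 0.120 and in-cell replicate 1 gave 0.302, and the ratio was 7.26. For the genomic RNA the averages were 1.39 and 0.369 in the same order, and their ratio was 3.77. The environments did not overlap in the spliced RNA, with 2 replicates each, and each profile's own scaling factor removes this difference from the normalised reactivities. The lower level in cells was not particular to the region. In the rest of the exons the log2 ratio of 5NIA to DMSO rate was 3.02 and 2.71 cell-free and 1.39 and 1.56 in cells. In the region it was 3.32 and 2.60 cell-free and 1.68 and 2.11 in cells.

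At single residues, limma's moderated test on the 4 spliced profiles called 0 of 188 residues at the adjusted threshold of 0.05, and 3 had an unadjusted p below 0.05, all lower in cells. The share called over all residues tested was 0%. The 3 were C240, A238 and A162. At C240 the cell-free replicates gave 0.985 and 0.957 and the in-cell replicates 0.379 and 0.530, and limma put the change at -0.52 with an SE of 0.123 (adjusted p = 0.841). The fitted change at A238 was -0.50 with an SE of 0.154, from cell-free values of 0.918 and 1.19 and in-cell values of 0.560 and 0.555 (limma adjusted p = 0.841). For A162, which had 2.08 and 2.34 without cells against 0.937 and 1.40 inside them, the change was -1.04 with an SE of 0.339 (limma adjusted p = 0.841). None of the 3 passed the adjusted threshold. Their values did not overlap between environments, which follows largely from picking the smallest p-values of the same fit and adds no support. The genomic pair, which is not in this fit, also read lower in cells: 0.356 against 0.805 at C240, 0.590 against 1.19 at A238 and 1.21 against 1.95 at A162. Without in-cell replicate 1 the fit called 82 residues, and without in-cell replicate 2 it called 7, in both cases with a lone in-cell sample assumed to vary like the cell-free ones.

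In-cell replicate 2 weighed on this comparison. By the size rule in-cell replicate 1 differed from cell-free replicate 1 at 8 of 188 residues, with 3.42% over all residues, and replicate 2 from its own cell-free profile at 38 of 188, with 23.5% over all. The in-cell replicates differed from each other at 46 of 188, with 25.2% over all. The 8 of replicate 1 were G191 and G177 higher in cells, and A162, C240, A318, A285, G255 and A202 lower. For the genomic RNA 20 of 187 residues passed, 11 higher and 9 lower in cells, with 18.7% over all its residues. Its largest were A318, which read 3.30 cell-free and 2.04 in cells, A215, which read 2.16 in cells and 0.991 cell-free, G191, at 1.41 and 0.336, A135, at 1.69 and 2.61, and A285, at 1.35 and 2.24.

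The in-cell minus cell-free differences of spliced replicate 1 and of the genomic RNA come from different libraries and share no sample. Over 187 residues of the region they correlated at a Pearson r of 0.67 and a Spearman rho of 0.57, and 135 residues, or 72.2%, had the same sign. Over the 280 other exon residues the values were 0.18 and 0.30, with 60% of the same sign. Spliced replicate 2 gave -0.13 with replicate 1 and -0.05 with the genomic RNA over the region. The residues share base composition and position in the amplicon, so these values are a description.

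**Figure D5:**
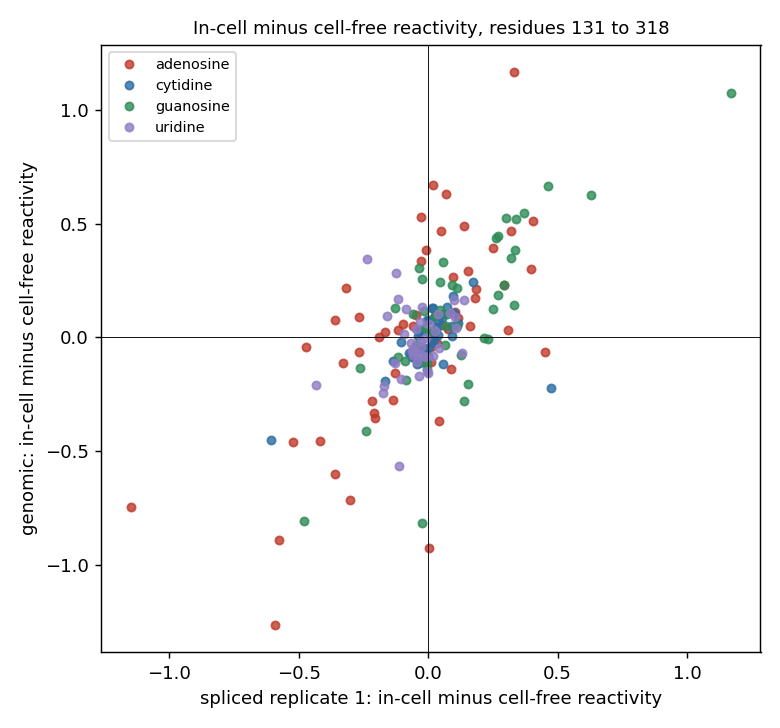
In-cell minus cell-free reactivity of spliced replicate 1 (horizontal axis) against that of the genomic RNA (vertical axis), both in units of the authors' score, for 187 residues of the region coloured by base. Points in the upper right and lower left quadrants have the same sign in both, 135 of 187. The guanosine at the far upper right is G191, and the adenosine at the far left is A162.

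By base, 30 of 49 guanosines of the region (61.2%) were higher in cells in spliced replicate 1, against 49.5% of all its residues. In the genomic RNA it was 30 of 48 (62.5%), against 55.1% of all residues and 58.2% of adenosines, and 24 guanosines were higher in both. No test of a difference between bases was made. In spliced replicate 2 the number was 23 of 49. The 7 guanosines of the stretch 207 to 226, before the closing helix, were higher in cells 7 of 7 times in spliced replicate 1 (median 0.270) and 7 of 7 times in the genomic RNA (median 0.349), but 4 of 7 times in replicate 2 (median 0.0310). This stretch is not plainly single-stranded. Summed over all partners, the joined model paired G212, G213 and G214 at 0.965, 0.993 and 0.993. In the rest of the exons 52 of 77 guanosines were higher in spliced replicate 1 and 35 of 77 in the genomic RNA.

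The residue furthest above its cell-free value in spliced in-cell replicate 1 was G191, which lies beside the apical loop of the hairpin 178 to 200 and pairs with U187 in the joined model (0.784). It read 0.460 and 0.422 in the spliced cell-free replicates, 0.336 in genomic, 0.251 in CH1 deletion and 0.378 in CH4 deletion RNA, against 1.63 in spliced in-cell replicate 1 and 1.41 in genomic in-cell RNA. In-cell replicate 2 went the other way, at -0.852. A limma fit of the spliced and genomic profiles with RNA form as a covariate, chosen after seeing the data, called 0 of 187 residues with all 6 profiles and 1 of 187 without in-cell replicate 2, against 0.214% over all residues. The residue was G191, higher in cells by 1.14 (SE 0.112, limma adjusted p = 0.0414), so the call rests on leaving that replicate out. In the same fit 24 residues were higher and 10 lower at an unadjusted p under 0.05. Among the higher were G250 with 0.56 (limma adjusted p = 0.0991), G177 with 0.68 and G213 with 0.35 (both limma adjusted p = 0.0991). Among the lower were C240 with -0.53 (limma adjusted p = 0.0991) and A162 with -1.05 (limma adjusted p = 0.126). These residues, too, are outside the call.

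Within the CH4 hairpin 7 of 29 residues were lower in cells in all 3 in-cell profiles, each against its own cell-free profile, and 3 were higher. Over the region 36 were lower and 30 higher in all 3, of 187. The 7 were G277, U278, A279, A285, G287, A293 and A295, chosen after their values were seen. G277 fell short of the test, with a difference of -0.70 (SE 0.255, limma adjusted p = 0.841), and so did A293, with -0.79 (SE 0.298, limma adjusted p = 0.841). The loop residue A285 differed by -0.47 (SE 0.366, limma adjusted p = 0.841). At G277 the lowest cell-free value was 1.68 and the highest in-cell value 1.23, and at A285 they were 2.19 and 1.82. At A279 they were 1.34 and 1.31 and at A293 1.31 and 1.26, so these residues barely parted. U278, G287 and A295 overlapped between environments. The share of residues without overlap over the whole region was not counted, so these values call nothing particular to the hairpin.

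Of 12 residues listed with a Z score (in-cell against cell-free) of at least 2 in size in the authors' deposited table of replicate 1, 3 lie in the region: C246 at -2.50, A297 at 2.18 and A318 at 2.42. In normalised reactivity, C246 read higher in cells in replicate 1, by 0.474. A297 and A318 read lower there, with differences of -0.316 and -0.590. In the authors' deposited table for replicate 2, 6 of 15 lie there: G181, C246, G255, G256, G262 and G306, between -3.75 and -2.08. All 6 read higher in cells in replicate 2, by 0.386 at G181 up to 69.5 at G255. At the listed residues of the region a negative Z score thus went with a higher reactivity in cells, and a positive one with a lower. C246 is the residue of the region that both of the authors' deposited tables list. C240, A162 and G191 are not among those of the authors' deposited tables.

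Set against the rest of the exons of the same profile, the region had the higher median reactivity in 8 of 8 profiles. The difference averaged 0.0565 ± 0.0460 (SD, n = 8) and ran from 0.00108 in spliced cell-free replicate 2 to 0.142 in the genomic in-cell profile. With bases weighted equally it was 0.0463 and positive in 6 of 8. The median of the guanosines was 0.362 and 0.382 in the region and 0.202 and 0.246 in the rest in the spliced cell-free replicates, while adenosines gave 0.838 and 0.852 against 0.776 and 0.922. These profiles include repeated measures of the same RNA, so the values describe the region and call nothing particular to it.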

How the data were processed

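SHAPE-MaP libraries were made from MUNC amplicons, after reverse transcription under mutational-profiling conditions with gene-specific primers, and sequenced on a MiSeq, per the labels' protocols. Per the file headers, the deposited tables give the count of mutations and of reads per residue, and the mutation rate as a fraction of the effective depth. The normalised reactivity is the authors' score, 1 factor per profile times the 5NIA rate minus the DMSO rate, which matched the deposited rates when checked. Pairing models were deposited as the -log10 of each pair's probability. The aligner, mutation counter, genome build and folding program are not given in the sources used here.

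Mutation counts were fitted with edgeR 4.0.16 (quasi-likelihood, log effective depth as offset, no further scaling) in R 4.3.3, and reactivities with limma 3.58.1 (trend). Both were fitted over all residues of the spliced RNA between the primer sites, at a depth of at least 1000 reads, with the Benjamini-Hochberg adjustment taken over all of them. DESeq2 1.42.0 served as an alternative. Both fits were tested on simulated data. Tables and plots were made with Python 3.11.15, pandas 2.3.3, numpy 2.4.6 and matplotlib 3.10.9.

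Comparisons with 1 profile in an arm used the size rule and no test. The authors' standard errors rest on depth, mutation rates and each profile's scaling factor, and their median over the region ran from 0.00880 in the genomic cell-free profile to 0.145 in spliced in-cell replicate 2. Residues were named by rule: helices of at least 4 pairs, the CH4 segment, the 10 most reactive residues, the 5 largest rises with 5NIA, the 3 smallest p-values between environments, up to 5 residues per comparison past the size rule (all where there were no more), and helices gained or lost between models. Residues named beyond it were chosen after their values were seen. The region, the members and the lists were chosen with earlier results of these data known, so no p-value is given for values averaged over the region, and the planned permutation tests of these averages were left out. Reactivity within the retained sequence of the genomic RNA was not analysed here.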

Additional observations from a re-analysis of the deposited data

Results flagged for a closer look

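The difference between the median reactivity of unpaired and paired residues was lowest in spliced in-cell replicate 2, at 0.217, apart from the other 7 profiles, which ran from 0.416 to 0.590. Its gap to the nearest profile was 0.534 of the whole range over the 8 profiles, past the critical value of Dixon's test at the 95% level, which flags about 1 group in 20 by chance. The 8 profiles come from 4 RNA forms and both environments, and the cause was not tested. The same test did not single out a profile for the log2 rate ratio or for the region's median reactivity minus that of the rest of the exons.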

How the results depend on the processing

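No region-wide value changed direction under the alternatives tried. The residues called higher with 5NIA (120, with 0 lower) numbered 36 with TMM scaling, which also called 11 lower, 0 with the in-cell libraries alone, and 68 to 137 when each replicate was left out. For cells against extracted RNA (0 called) the counts ran from 0 to 82 when each replicate was left out, where the lone sample of an arm is assumed to vary like the other arm. The fit of 5 spliced and genomic profiles, added after seeing the data, called 1. The cell-free minus in-cell rate difference of 1.20 percentage points was 0.845 with medians in place of means. The region's median reactivity minus that of the rest, 0.0565, is 4.90 percentage points when taken as the share of residues at 0.5 or above, which is another unit. With a limit of 0.3 in the size rule the counts were 5 for the CH4 deletion (1), 24 for the CH1 deletion (5), 26 and 20 for genomic against spliced RNA cell-free (10) and in cells (9), and 41 for genomic RNA in cells against cell-free (20). With a limit of 1 they were 1, 0, 1, 1 and 3 in the same order. Against 1 replicate alone the CH4 deletion gave 3 (replicate 1) and 2 (replicate 2), the CH1 deletion 12 (replicate 2), and the genomic in-cell profile 51 (in-cell replicate 2).

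With the replicate number as a replicate block, edgeR called 139 residues and limma 0. Same-numbered 5NIA and DMSO libraries deviated together, with correlations of 0.297 cell-free and 0.325 in cells, and their rates enter each reactivity as a pair. Same-numbered cell-free and in-cell reactivities correlated at -0.0232, so the numbers were not taken to pair the environments.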
